A study of Drosophila melanogaster with 9 samples.

Results

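Trehalose genes of Drosophila melanogaster were compared between wild type and 2 mutants of O-GlcNAc cycling. They were Tps1, which makes the sugar, Treh, which breaks it down, and Tret1-1 and Tret1-2, a transporter gene and its neighbouring paralog. The members are the genes on this list to which the array annotation assigns a probe set, and for a gene with several probe sets the one with the highest mean would be taken. Each of the 4 genes had 1 probe set, so the 4 members were drawn from 11982 genes measured. Total RNA was hybridised to 9 Affymetrix Drosophila_2 arrays, of which wild type, the OGA mutant and the SXC mutant had 3 each. The product of Oga, the O-GlcNAcase, takes O-linked N-acetylglucosamine off proteins, and that of sxc, the transferase, puts it on. The labels give no allele, tissue, stage, age, sex or diet for any group, and nothing says whether replicates were separate animals or cultures. The p-values therefore measure the spread between these arrays, which may be technical. The title of the series concerns nutrient-responsive oogenesis, but this does not tell which tissue was hybridised.

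Trehalose is the main sugar of insect blood. Fat body cells build it from UDP-glucose and glucose 6-phosphate through trehalose-6-phosphate synthase (Tps1), it circulates in the haemolymph, facilitated transporters such as Tret1-1 carry it across cell membranes, and trehalase (Treh) splits it into glucose. Tret1-2 encodes a close relative of Tret1-1. No sequence of these genes is shown, since the files and tables used here hold none.

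All values are log2 expression values as deposited, on arrays whose median over genes lay between 7.45 and 7.58 and whose lower quartile lay between 5.16 and 5.24. Differences were tested with limma over all 11982 genes, and a gene was called changed at a Benjamini-Hochberg adjusted p under 0.05. Because these are bulk RNA samples, fewer cells of a type and less RNA per cell cannot be told apart in any of the values. The labels were checked on the altered genes. The SXC mutant arrays had sxc at 10.32 to 10.36 against 11.79 to 11.87 in wild type, and the OGA mutant arrays had Oga at 8.75 to 8.90 against 9.68 to 10.13 in wild type. Whether either probe set lies in the altered part of its gene is not known.

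In the SXC mutant the transporter gene Tret1-1 rose about 1.6-fold and the trehalase gene Treh fell about 1.4-fold, while Tps1 and Tret1-2 did not pass the test. In the OGA mutant none of the 4 genes passed. Tret1-1 and Treh were read well above the array medians, and Tps1 and Tret1-2 near the lower quartile, so that the last pair are read with caution throughout.

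Tret1-1 (CG30035, chromosome 2R), the trehalose transporter gene, is read by a probe set whose suffix marks it as matching alternative transcripts of 1 gene, and RefSeq lists 2 transcripts. Its level was 10.99, 11.28 and 11.29 on wild-type replicates 1 to 3, 11.53, 11.19 and 11.26 in the OGA mutant, and 11.92, 11.80 and 11.85 in the SXC mutant. All 3 SXC mutant arrays were above every wild-type and OGA mutant array, and the wild-type and OGA mutant arrays overlapped. Of all genes, 32.7% had SXC mutant and wild-type arrays that did not overlap, and 30.2% had SXC mutant and OGA mutant arrays that did not. The group means were 11.18 ± 0.17, 11.33 ± 0.18 and 11.85 ± 0.06 (SD, n = 3 each). The SXC mutant exceeded wild type by 0.67 on the log2 scale (SE 0.10, 95% interval 0.44 to 0.90), a 1.59-fold rise (limma adjusted p = 0.00278). In that comparison 5.09% of all genes were called higher and 12.9% were called in either direction. By p-value Tret1-1 was in place 175 of the 11982 genes.

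Treh (CG9364, chromosome 2R), the trehalase gene, is read by a probe set whose suffix marks it as matching several transcripts, which the array's naming does not limit to 1 gene, and RefSeq lists 7 transcripts of Treh. The level was 11.10, 11.03 and 10.86 on wild-type replicates 1 to 3, 11.27, 10.91 and 10.90 in the OGA mutant, and 10.24, 10.64 and 10.72 in the SXC mutant. Every SXC mutant array was below every array of the other groups, and replicate 1 of the SXC mutant was the lowest. SXC mutant and wild-type arrays did not overlap for 32.7% of all genes, and SXC mutant and OGA mutant arrays for 30.2%. The means of Treh were 11.00 ± 0.12 in wild type, 11.02 ± 0.21 in the OGA mutant and 10.54 ± 0.26 in the SXC mutant (SD, n = 3 each). In the SXC mutant the log2 level of Treh fell by 0.46 (SE 0.13, 95% interval −0.75 to −0.17), or 1.37-fold (limma adjusted p = 0.0437), where 7.84% of all genes were called lower. The call lies close to the threshold: it was lost on leaving out wild type replicate 1 (adjusted p = 0.160), 2 (0.117) or 3 (0.0564), OGA mutant replicate 2 (0.0546), or SXC mutant replicate 1 (0.140) or 2 (0.0683). It also ended with quantile normalization (0.0616), median centring (0.0531), no moderation of variances (0.165) or blocking on replicate number (0.0806). The log2 difference stayed between −0.55 and −0.31 under all alternatives run.

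**Figure D1:**
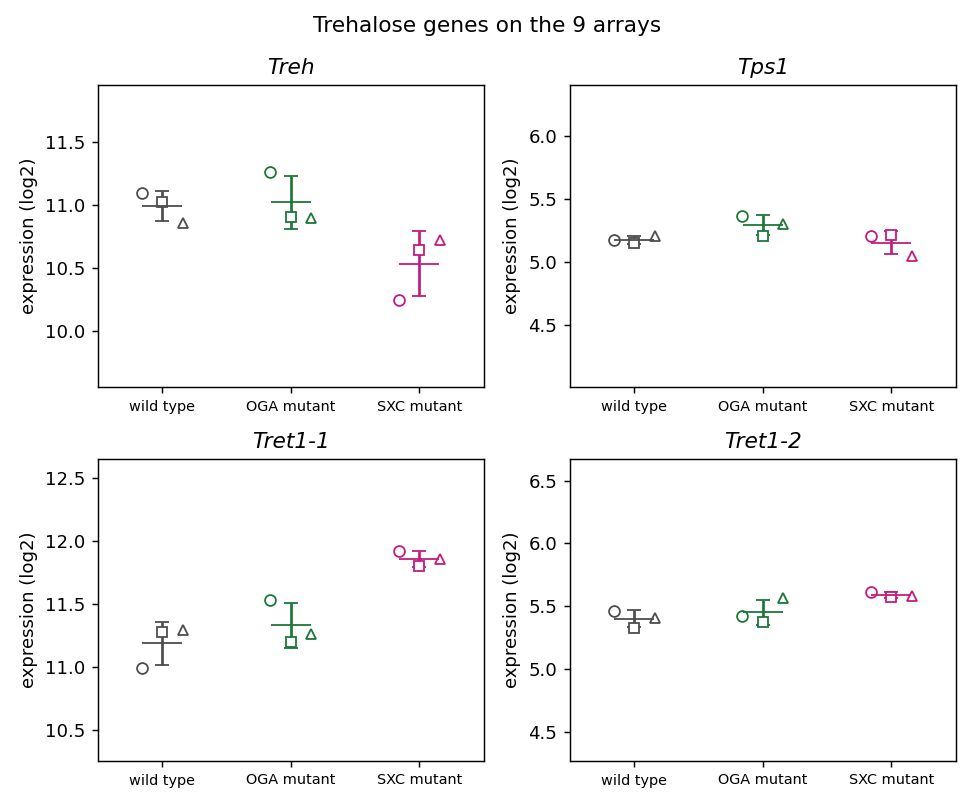
Log2 expression (vertical axis, the same span in each panel) of the 4 trehalose genes on each array, by genotype; circles, squares and triangles are replicates 1, 2 and 3, and bars are the mean ± SD of 3 arrays. The SXC mutant arrays lie apart from both other groups for Treh (below) and Tret1-1 (above), and all arrays of Tps1 lie between 5.04 and 5.36.

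Tps1 (CG4104, chromosome 2L), the synthase gene, gave 5.17, 5.15 and 5.20 on wild-type replicates 1 to 3. It gave 5.36, 5.20 and 5.30 in the OGA mutant and 5.20, 5.21 and 5.04 in the SXC mutant. The 3 groups overlapped. Its mean over the 9 arrays, 5.21, was higher than that of only 25.3% of genes, and no detection calls were used, so the probe set may read no transcript. The log2 difference from wild type was 0.12 in the OGA mutant (SE 0.07, 95% interval −0.04 to 0.27, limma adjusted p = 0.975) and −0.02 in the SXC mutant (SE 0.07, 95% interval −0.17 to 0.13, limma adjusted p = 0.884). The intervals describe a probe set this dim and do not bound a change in the transcript.

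Tret1-2 (CG8234, chromosome 2R) lies next to Tret1-1 with no other RefSeq gene between them. Its probe set carries the same suffix as that of Tret1-1, which marks alternative transcripts of 1 gene. Paralogs can still share probes in part, the probe sequences were not used here, and the value of Tret1-2 is uncertain for that reason too. The level was 5.47, 5.33 and 5.41 on wild-type replicates 1 to 3, 5.42, 5.37 and 5.57 in the OGA mutant, and 5.62, 5.58 and 5.58 in the SXC mutant. The SXC mutant arrays were all above the arrays of both other groups, by a small margin. Of all genes, 32.7% had no overlap between SXC mutant and wild-type arrays, and 30.2% none between the mutants. For Tret1-2 the SXC mutant and wild type differed by 0.19 on the log2 scale (SE 0.07, 95% interval 0.04 to 0.34), which missed the threshold (limma adjusted p = 0.101). With array quality weights the difference of 0.22 passed (adjusted p = 0.0119). The mean of 5.48 was above that of 31.1% of genes, so the probe set of Tret1-2, like that of Tps1, may detect little.

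The OGA mutant was set against wild type to ask whether altered removal of O-GlcNAc went with changes in these genes. Limma called 0 of the 4 members, and 0 had an unadjusted p under 0.05. Over all genes 0.00835% were called, which is Oga alone, and 3.91% had an unadjusted p under 0.05. Treh differed by 0.03 on the log2 scale (SE 0.13, 95% interval −0.26 to 0.32, limma adjusted p = 0.992), Tret1-1 by 0.14 (SE 0.10, −0.08 to 0.37, adjusted p = 0.975) and Tret1-2 by 0.05 (SE 0.07, −0.10 to 0.20, adjusted p = 0.979). The 3 OGA mutant arrays of each of these genes overlapped the wild-type arrays.

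The difference between the mutants was tested directly. Tret1-1 was lower in the OGA mutant than in the SXC mutant by a log2 difference of −0.53 (SE 0.10, 95% interval −0.75 to −0.30, 1.44-fold, limma adjusted p = 0.00937). Treh was higher by 0.49 (SE 0.13, 95% interval 0.20 to 0.78, 1.40-fold, adjusted p = 0.0371). In this comparison 11.8% of all genes were called, 7.79% higher and 3.98% lower in the OGA mutant. It uses the same SXC mutant arrays as the comparison with wild type, so the pair of results is not independent. Tps1 (0.14, SE 0.07, adjusted p = 0.233) and Tret1-2 (−0.14, SE 0.07, adjusted p = 0.226) did not pass. The Treh call again ended without SXC mutant replicate 1 (adjusted p = 0.121) or 2 (0.0638), OGA mutant replicate 1 (0.104), 2 (0.0534) or 3 (0.0553), or wild type replicate 2 (0.0566). The Tret1-1 call ended only with no moderation (0.0680) among the alternatives run.

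**Figure D2:**
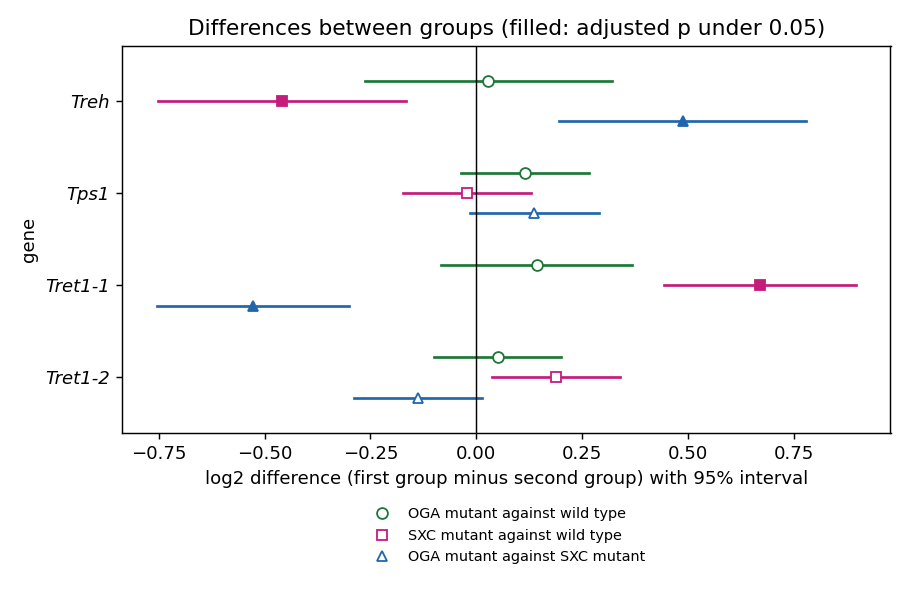
Log2 difference between groups (horizontal axis) with its 95% limma interval for each trehalose gene, coloured by comparison; filled symbols have an adjusted p under 0.05. Tret1-1 lies at 0.67 and Treh at −0.46 in the SXC mutant against wild type, and all OGA mutant intervals against wild type include 0.

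Trehalose metabolism was then placed among 48 further measured genes of 53 listed. The lists covered trehalose phosphatases (with the predicted trehalase gene CG6262), glucose phosphate supply, glycogen, sugar transporters and regulators of circulating sugar. In the SXC mutant 4 of the 48 rose, 2 fell and 42 did not pass, which is 12.5% called against 12.9% of all genes. Their median log2 difference was −0.01, as was that of all genes (−0.01). In the OGA mutant 0 of the 48 were called by limma, and 0 had an unadjusted p under 0.05. The share called in these lists as a whole was therefore close to the background, and single genes are given as values.

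Among the sugar transporters and transporter-like genes, 3 of 19 measured rose in the SXC mutant, none fell and 16 did not pass, and the median log2 difference was 0.10. That is 15.8% called, against 12.9% of all genes (5.09% higher). The sugar transporter gene sut1 had 10.71, 10.64 and 10.49 on wild-type replicates 1 to 3 and 11.50, 11.03 and 11.08 on the SXC mutant arrays. It rose by 0.59 (SE 0.11, 1.51-fold, limma adjusted p = 0.00691), a call lost under 1 of 20 alternatives (0.0570). The transporter gene nebu (listed as CG10960) had 10.44, 10.81 and 11.13 in wild type and 11.55, 11.39 and 11.34 in the SXC mutant. It rose by 0.63 (SE 0.15, 1.55-fold, adjusted p = 0.0166), and its wild-type arrays spread more widely than its mutant arrays. CG1213, a transporter-like gene, had 6.99, 7.12 and 6.98 in wild type and 8.45, 7.66 and 7.37 in the SXC mutant, so that replicate 1 stood highest. It rose by 0.80 (SE 0.22, 1.74-fold, adjusted p = 0.0368). Without SXC mutant replicate 1 the difference of CG1213 was 0.49 (adjusted p = 0.0639). Its call also ended without SXC mutant replicate 2 (0.0612) or wild type replicate 1 (0.117), 2 (0.0732) or 3 (0.0981). With no moderation (0.170) or only the 2 groups fitted (0.0505) it ended too. The nebu call was lost without SXC mutant replicate 1 (0.0647) or wild type replicate 1 (0.0514), or with no moderation (0.100). The SXC mutant and wild-type arrays did not overlap for sut1, nebu or CG1213, as for 32.7% of all genes. In the OGA mutant the transporters ranged from −0.19 to 0.13 on the log2 scale, with 0 of 19 called by limma and 0 with an unadjusted p under 0.05.

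Of the genes that supply glucose phosphates, 2 of 12 measured fell in the SXC mutant, none rose and 10 did not pass, with a median of −0.08. That is 16.7% called, against 12.9% of all genes (7.84% lower). The gene fbp encodes the gluconeogenic enzyme fructose-1,6-bisphosphatase. It had 10.75, 10.83 and 10.60 in wild type and 10.39, 10.17 and 10.00 in the SXC mutant, which did not overlap (as for 32.7% of all genes). On the log2 scale it fell by 0.54 (SE 0.10, 1.45-fold, limma adjusted p = 0.00692), a call lost only with no moderation (0.0529). The phosphoenolpyruvate carboxykinase gene Pepck1 had 12.87, 12.74 and 12.55 in wild type and 12.06, 12.36 and 12.30 in the SXC mutant. It fell by 0.48 (SE 0.13, 1.40-fold, adjusted p = 0.0285). The Pepck1 call was lost on leaving out SXC mutant replicate 1 (0.106), wild type replicate 1 (0.120) or wild type replicate 2 (0.0801). It was also lost with no moderation (0.127) or blocking on replicate number (0.0515). UGP, whose enzyme makes the UDP-glucose that trehalose synthesis consumes, had a log2 difference of −0.13 (SE 0.08, adjusted p = 0.321). In the OGA mutant 0 of 12 were called by limma and 0 had an unadjusted p under 0.05, and the smallest p-values belonged to the phosphoglucomutase gene Pgm2a (0.18, SE 0.09) and the hexokinase gene Hex-A (0.18, SE 0.09).

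The list of trehalose phosphatases, enzymes that take the phosphate off trehalose 6-phosphate, also holds CG6262, a predicted trehalase gene. This list had 0 of 3 called in the SXC mutant and 0 of 3 in the OGA mutant, with 0 at an unadjusted p under 0.05 in limma. CG5171 differed from wild type by 0.06 in the SXC mutant (SE 0.07, adjusted p = 0.688), CG5177 by 0.04 (SE 0.06, adjusted p = 0.791) and CG6262 by −0.04 (SE 0.08, adjusted p = 0.816). The glycogen list gave 0 of 3 called in limma in either mutant, and 0 at an unadjusted p under 0.05. Glycogen synthase (Glys, −0.07, SE 0.08), glycogen phosphorylase (Glyp, −0.10, SE 0.15) and the branching enzyme gene AGBE (−0.02, SE 0.08) were within their errors in the SXC mutant.

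**Figure D3:**
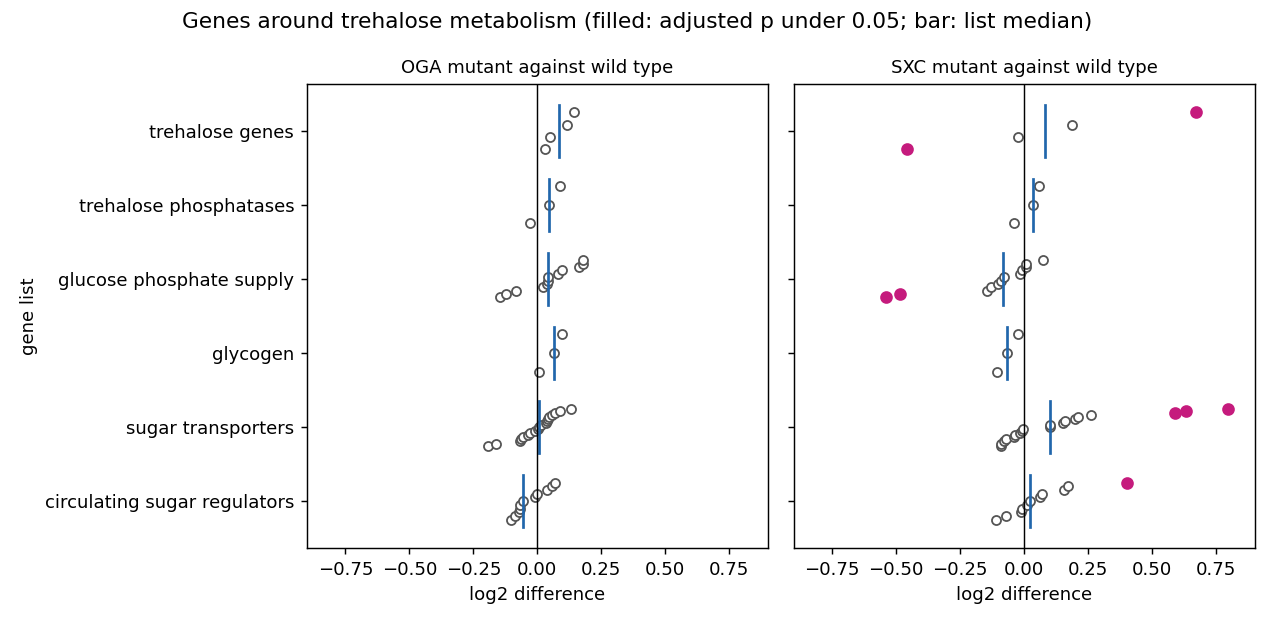
Log2 difference from wild type (horizontal axis) of each measured gene in the trehalose list and 5 related lists, for the OGA mutant (left) and the SXC mutant (right); filled points have an adjusted p under 0.05 and the blue bar is the list median. All filled points are in the SXC mutant: 5 higher and 3 lower of 52 genes, Tret1-1 and Treh included. The trehalose phosphatase list includes CG6262, a predicted trehalase gene.

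Of 11 measured regulators of circulating sugar, 1 rose in the SXC mutant and 10 did not pass, with a median of 0.02. That is 9.09% called, below the 12.9% of all genes. The gene was sug (sugarbabe), a zinc-finger transcription factor gene known for its response to dietary sugar. The level of sug was 11.22, 11.35 and 11.15 on wild-type replicates 1 to 3 and 11.74, 11.64 and 11.54 on the SXC mutant arrays. These groups did not overlap, as for 32.7% of all genes. The sug level rose by 0.40 (SE 0.08, 1.32-fold, limma adjusted p = 0.00690). In the OGA mutant sug was 11.23, 11.18 and 11.10, which overlapped wild type. Mondo, whose product senses glucose phosphate, had a log2 difference of 0.17 in the SXC mutant (SE 0.09, adjusted p = 0.236). The adipokinetic hormone gene and the measured insulin-like peptide genes, Ilp2 and Ilp5, were not called in either mutant.

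**Figure D4:**
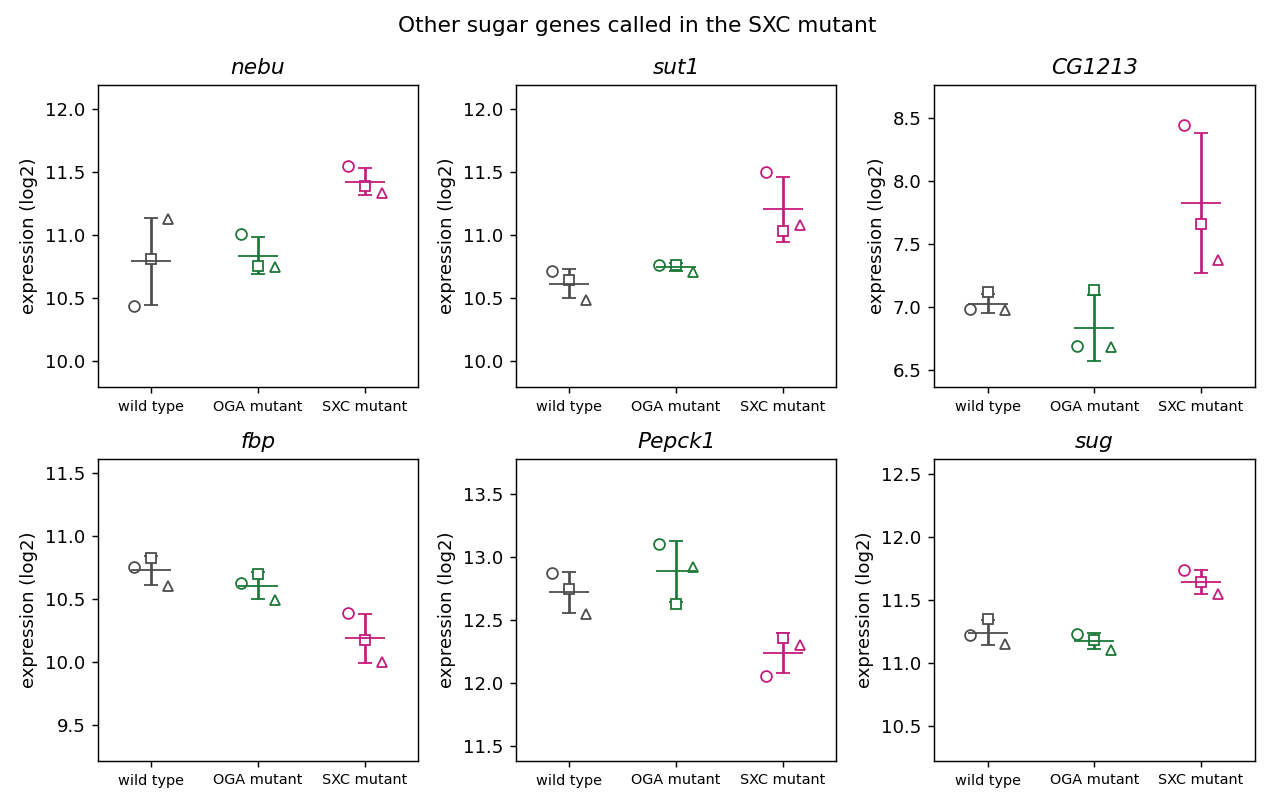
Log2 expression (vertical axis, the same span in each panel) of the 6 other sugar genes called in the SXC mutant, on each array by genotype; circles, squares and triangles are replicates 1, 2 and 3, and bars are the mean ± SD of 3 arrays. The SXC mutant arrays are all above wild type for nebu, sut1, CG1213 and sug, and all below for fbp and Pepck1.

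Signs of RNA quality and of other cell types were set beside these changes. The 3′ minus 5′ log2 difference of GAPDH_r2, a pair of control probe sets, was 2.74 to 3.29 on the SXC mutant arrays, 1.79 to 2.31 on the wild-type arrays and 2.01 to 2.25 on the OGA mutant arrays. The GAPDH, ACTIN, eIF4a and Act5C_r2 pairs overlapped between SXC mutant and wild type. The GAPDH pair was 1.08 to 1.24 on the SXC mutant arrays and 0.97 to 1.02 on the OGA mutant arrays, which did not overlap. With the trend of the values on gene length removed (this alternative was chosen after seeing the data), Tret1-1 rose by 0.62 (limma adjusted p = 0.00397) and Treh fell by 0.52 (adjusted p = 0.0233). Length here is the genomic span of the gene with introns, so this step does not measure or correct RNA breakdown. Of 44 measured markers of 10 tissues or cell types, 5 were called in the SXC mutant (11.4%), against 12.9% of all genes. They were spread over 5 lists, in each of which the other members did not pass. Among the glial markers moody fell by 0.98 (limma adjusted p = 0.00227), while Gs2 (0.16), nrv2 (0.05) and repo (−0.03) did not pass, and the list median was 0.01. The summed level (log2) of the glial markers was 11.87 to 12.04 on the SXC mutant arrays, 12.11 to 12.32 in wild type and 12.00 to 12.42 in the OGA mutant. That sum holds moody, and 2 of the 4 members had a positive difference. The defining glial gene repo read 4.34 to 4.49 as group means. Among the neuronal markers elav fell by 0.35 (adjusted p = 0.0462), while brp (0.01), nSyb (−0.06) and Rdl (−0.08) did not pass. The germline gene nanos (0.47), the muscle gene up (0.43) and the midgut gene alphaTry (0.26) rose, each at a mean under 5.5 in every group. In the same lists vas (−0.16), TpnC4 (−0.11) and Mal-A6 (−0.23) had negative differences that did not pass. Most members went the other way: 5 of 6 germline, 3 of 4 muscle and 6 of 8 midgut markers had positive differences. Among them osk (0.33) and LManII (0.19) did not pass. Of all 44 measured markers 29 had a positive difference and 15 a negative one, beside 5774 positive of all 11982 genes. For muscle the summed level (log2) was 7.61 to 7.78 in the SXC mutant and 7.55 to 7.58 in wild type. The 4 muscle markers read only 4.98 to 6.06 as group means, so their probe sets may detect little. For midgut the summed level (log2) was 12.01 to 12.19 in the SXC mutant and 11.80 to 11.97 in wild type. The midgut sum is almost all LManII (11.71 to 11.96 as group means), since betaTry, the next highest, read 6.38 to 6.53. It therefore describes 1 gene, which did not pass (limma adjusted p = 0.138), and is no measure of midgut content. The mean of the germline list was 6.003 to 6.085 in the SXC mutant and 5.836 to 5.971 in wild type, while its sums overlapped. The fat body markers had 0 of 4 called, and their summed level (log2) was 11.98 to 12.12 in the SXC mutant and 11.86 to 12.11 in wild type. That sum is almost all fat-spondin (11.95 to 12.06 as group means), since Fbp1 (6.08 to 6.18) and Fbp2 (6.09 to 6.27) read far lower. It therefore describes 1 gene and is no measure of fat body content. The larval serum protein gene Lsp2 read 5.35 to 5.42 as group means. The follicle cell markers had 0 of 5 called in the SXC mutant and read 5.64 to 7.45 as group means. Those of the germline read 4.11 to 6.12, apart from aub (11.05 to 11.08). The part of RNA quality and of cell makeup in the changes of Tret1-1 and Treh was not tested beyond these values.

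The genes whose pattern over the 9 arrays was most like that of each member were found by Pearson correlation among genes with a mean at or above the median. The 9 arrays hold 3 groups, so a shared group difference gives a high correlation, and these values are a description. Tret1-1 was most like foi (r = 0.99), which encodes a zinc transporter of the ZIP family, CG18213 (0.98) and the activin pathway factor gene Smox (0.98). The gene foi differed between the SXC mutant and wild type by 0.72 on the log2 scale (SE 0.10, limma adjusted p = 0.00160) and Smox by 0.65 (SE 0.13, adjusted p = 0.00959). Treh was most like HisT (r = 0.98), cv-d (0.98) and the golgin gene GCC185 (0.97). The SXC mutant difference was −0.48 for HisT (SE 0.13, adjusted p = 0.0293) and −0.35 for cv-d (SE 0.09, adjusted p = 0.0330), and that of GCC185 did not pass (−0.25, SE 0.10, adjusted p = 0.125). For the dim probe sets the nearest patterns were CG4611 (r = 0.99) for Tret1-2 and CG4452 (0.90) for Tps1.

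**Figure D5:**
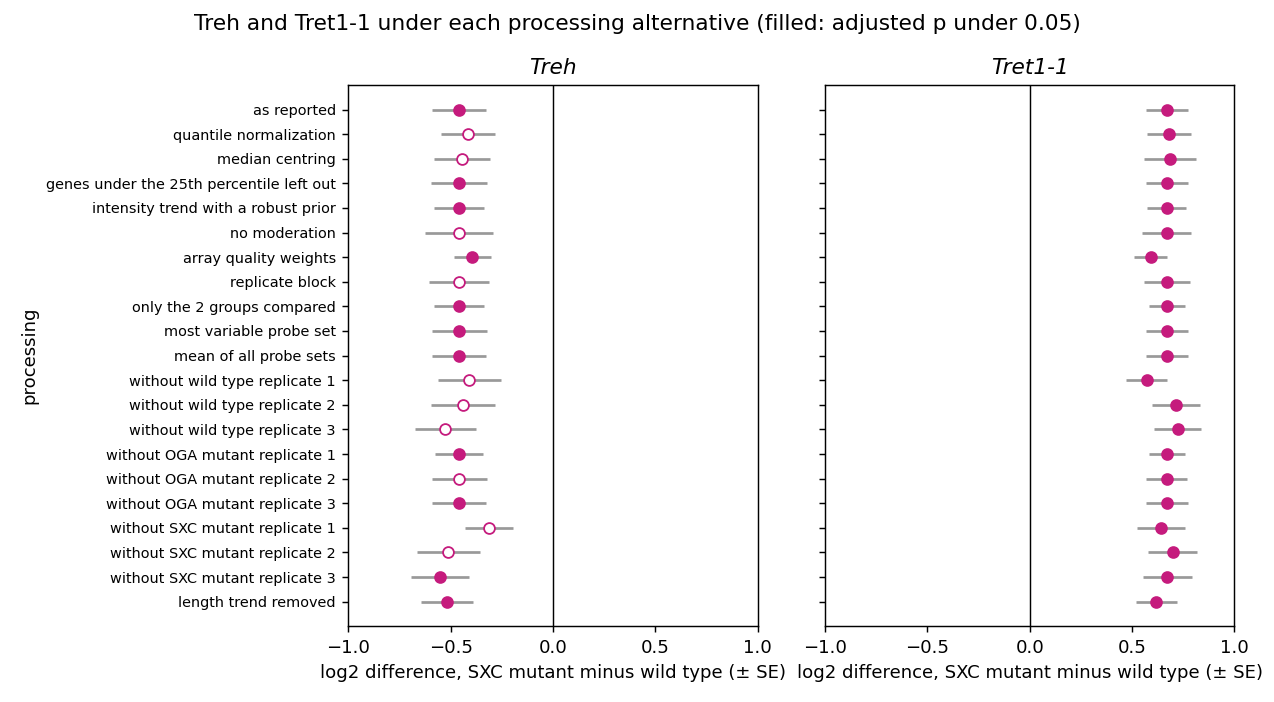
Log2 difference between the SXC mutant and wild type (horizontal axis, ± SE) of Treh and Tret1-1 under the reported processing and each alternative (vertical axis); filled points have an adjusted p under 0.05. Tret1-1 stays between 0.57 and 0.72 and is filled throughout; Treh stays between −0.55 and −0.31 and is open under 10 of 20 alternatives.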

How the data were processed

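The authors deposited 1 table of log2 values, 18952 probe sets by 9 arrays, with nearly equal quartiles on all arrays; the log2 scale was read from the values. The submitters' processing notes list MAS5, RMA and Partek without saying what each was used for. Groups and replicate numbers came from the sample titles. Probe sets were named from the platform annotation, with symbols updated through Entrez identifiers to RefSeq (Release 6 plus ISO1 MT). Of the probe sets, 13647 had 1 gene, 402 several and 4720 none listed, and 183 controls were left out. The probe set with the highest mean was kept per gene.

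The test was limma 3.58.1 in R 4.3.3, over all 9 arrays and 11982 genes (6 residual and 5.17 prior degrees of freedom, Benjamini-Hochberg adjustment, threshold 0.05); the procedure was tested on simulated data. The median SE of a log2 difference was 0.08. Precision is limited by the number of arrays. The members, the 6 pathway lists (57 genes, 52 measured) and the marker lists (62 genes, 44 measured) were chosen with earlier results of these data known. Named genes were the members, called list genes, up to 3 list genes with the smallest p, the 3 genes most like each member, and Oga and sxc; marker genes called were named in addition. Alternatives changed scaling, filter, prior, weights, replicate block, samples fitted, probe set and arrays left out; a length trend was added later.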

Additional observations from a re-analysis of the deposited data

How the results depend on the processing

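Across 20 alternatives Tret1-1 kept its rise in the SXC mutant (log2 0.57 to 0.72, limma adjusted p 0.000484 to 0.0334), as did sug. Treh in the SXC mutant against wild type lost its call with quantile normalization (−0.42), median centring (−0.44), no moderation and the replicate block (both −0.46, adjusted p = 0.165 and 0.0806), and ranged from −0.55 to −0.31 with an array left out. The replicate block also ended the call of Pepck1 in the SXC mutant (−0.48, adjusted p = 0.0515). Between the mutants Treh lost it with quantile normalization (0.44), median centring (0.45), no moderation, the replicate block and only the 2 groups fitted (all 0.49; adjusted p = 0.0697 with the replicate block), and ranged from 0.34 to 0.58; Tret1-1 lost it with no moderation (−0.53). Tret1-2 in the SXC mutant passed with array quality weights (0.22) and the length trend removed (0.21). The sign turned for values near 0: Treh in the OGA mutant with array quality weights (−0.00127), the length trend removed (−0.00380) or an array left out (−0.0926 to 0.09), Tret1-2 in the OGA mutant with an array left out (−0.00622 to 0.0902), and Tps1 in the SXC mutant with array quality weights (0.0127) or an array left out (−0.0503 to 0.0325). Pathway genes called in the SXC mutant were 8, 2 with no moderation and 4 to 9 with an array left out (4 without SXC mutant replicate 1 and 4 without wild type replicate 1); between the mutants they were 8, 1 with no moderation and 4 to 8 with an array left out. All genes called were 1549 in the SXC mutant, 820 with no moderation, 2824 with array quality weights and 664 to 1751 with an array left out; 1410 between the mutants, 459 with no moderation and 724 to 1334 with an array left out; and 1 in the OGA mutant, 2 with the intensity trend and robust prior, and 0 with no moderation or only the 2 groups, 0 to 1 with an array left out. Of 20 calls among members, other pathway genes, Oga and sxc, 6 held under every alternative; the cause of the losses was not tested. The deviations of same-numbered arrays of different groups had r from −0.22 to 0.29 over 9 pairs. Those of other pairs had r from −0.32 to 0.24 over 18 pairs. These values do not show that the numbers pair the samples. They cannot exclude it either, since each deviation is from the mean of a small group that holds the array itself.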
